A study of Homo sapiens with 117 samples.

Results

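Distal CTCF sites rich in CpG are places where the insulator protein CTCF bound away from the starts of protein-coding genes, in sequence dense in CpG dinucleotides. They were chosen by peak strength, position and sequence. The 20000 peaks with the highest fold value were taken from each of 24 peak lists, summits within 100 bp of each other were joined into 28745 sites, and the 26792 sites held by 2 or more lists were kept. Of these, 3724 sites (13.9%) had a centre more than 1 kb from every protein-coding transcription start site (TSS) of GENCODE 44 and at least 8 CpG within 100 bp of the centre on GRCh38. The other sites were 17454 distal sites with 1 to 7 CpG, 2527 distal sites without CpG, 2381 promoter sites (within 1 kb of a protein-coding TSS) with 8 or more CpG and 706 promoter sites with fewer. Since fold values chose the sites, their presence and their ranks over all lists are descriptions and carry no test.

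The data are CTCF ChIP-seq peak lists of DIvA cells, a U2OS-derived osteosarcoma line in which 4-hydroxytamoxifen (4-OHT) brings the restriction enzyme AsiSI into action. IDH1 WT or IDH1 R132H had been introduced into these cells by lentivirus, so every group also carries the inducible AsiSI and an IDH1 transgene. The 8 conditions were IDH1 WT and IDH1 R132H cells without (−DSB) and with (+DSB) 300 nM 4-OHT for 4 h, and IDH1 R132H cells overexpressing the catalytic domain of TET1 (TET1 CD) or a catalytically dead version of it (TET1 dCD), again without and with 4-OHT. There were 3 lists for WT −DSB and for TET1 dCD −DSB, 4 each for WT +DSB, R132H −DSB and R132H +DSB, and 2 for each remaining condition.

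CTCF is a zinc-finger protein that, together with the cohesin ring, anchors chromatin loops and separates regulatory domains. Several of the bases its fingers read can form a CpG, and methylation of the cytosine there can keep CTCF off the DNA, as at the imprinted H19 locus. Mutant IDH1 makes D-2-hydroxyglutarate, which inhibits the TET enzymes that remove DNA methylation, so that CpG-rich CTCF sites are where a gain of methylation would be looked for. The comparison of R132H with WT and that of TET1 CD with its dead form ask about this, and the comparison of +DSB with −DSB asks whether binding changed once AsiSI had cut.

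Before the results, 4 properties of the lists bear on all of them. The peak names inside the lists carried another condition than the label in 9 lists: those labelled WT −DSB carried R132H −DSB names, those labelled R132H −DSB carried WT −DSB names, and 2 of the 3 labelled TET1 dCD −DSB carried TET1 CD +DSB names. Groups follow the labels here, and the main counts, with the single sites whose calls rest most on these lists, are given by the run names as well. Depth, estimated from the steps of the fold values, ran from 22.7 to 80.0 M reads, and the shortest peak, which is the peak caller's fragment length, from 118 to 194 bp. The lists of WT +DSB (70.9 to 80.0 M, 143 to 191 bp) and R132H −DSB (44.3 to 63.2 M, 144 to 150 bp) were deep with long fragments, and those of WT −DSB (22.7 to 35.1 M, 124 to 128 bp) and R132H +DSB (23.7 to 34.6 M, 121 to 127 bp) were shallow with short ones, so the change with 4-OHT and this technical split cannot be told apart within either genotype. By run names, the WT lists would all be deep with long fragments. The R132H lists without a TET1 construct would all be shallow with short ones. Genotype by run names and this split therefore cannot be told apart. In 7 conditions some lists differed by no more than counting noise and were averaged, which left 17 samples. A list joined a sample only if it differed from none of its lists, so WT +DSB replicate 1, which matched replicate 3 within counting noise but differed from replicate 4, stayed on its own. The study describes a pair of biological replicates for this assay, and the labels do not say which lists share a culture, so part of the spread between samples behind the p-values may be technical. TET1 CD had 1 sample in each treatment, assumed to vary like the others.

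The sequences below show what such sites look like, in the GRCh38 plus strand. They were picked as the strongest site, a site in the HOXA cluster, a site by each of the CDKN1C and TET3 genes, the site with the most CpG outside chromosome 21, and 2 sites that hold an AsiSI recognition sequence. Capitals mark the CTCF core motif CCNNNAGNNGGC on either strand, searched within 50 bp of the centre, and the AsiSI sequence GCGATCGC. The windows by HOXA3, TET3 and VSTM2B hold no match to these letters of the core.
POLR3K, chr16:10875-11075: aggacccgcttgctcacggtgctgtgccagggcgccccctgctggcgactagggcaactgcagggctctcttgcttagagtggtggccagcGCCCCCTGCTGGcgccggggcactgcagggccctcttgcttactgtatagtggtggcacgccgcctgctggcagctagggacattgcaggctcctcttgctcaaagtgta
HOXA3 intron, chr7:27150858-27151058: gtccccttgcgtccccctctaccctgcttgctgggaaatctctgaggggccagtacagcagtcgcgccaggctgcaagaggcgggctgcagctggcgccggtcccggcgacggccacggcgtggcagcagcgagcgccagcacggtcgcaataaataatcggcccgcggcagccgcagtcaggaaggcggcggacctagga
CDKN1C, chr11:2888469-2888669: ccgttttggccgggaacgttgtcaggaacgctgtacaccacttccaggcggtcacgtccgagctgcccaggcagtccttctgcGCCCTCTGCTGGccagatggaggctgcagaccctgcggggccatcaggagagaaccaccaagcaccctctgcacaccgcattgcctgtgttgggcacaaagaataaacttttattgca
TET3, chr2:74120212-74120412: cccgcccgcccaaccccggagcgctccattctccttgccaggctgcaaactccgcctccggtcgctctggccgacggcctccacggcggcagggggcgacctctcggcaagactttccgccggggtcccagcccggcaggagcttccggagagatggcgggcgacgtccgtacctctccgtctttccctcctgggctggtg
CD83, chr6:14211192-14211392: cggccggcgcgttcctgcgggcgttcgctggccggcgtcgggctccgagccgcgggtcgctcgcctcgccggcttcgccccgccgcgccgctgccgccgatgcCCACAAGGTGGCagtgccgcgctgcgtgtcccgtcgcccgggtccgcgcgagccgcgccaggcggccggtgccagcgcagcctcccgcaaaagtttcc
SLC32A1, chr20:38731565-38731765: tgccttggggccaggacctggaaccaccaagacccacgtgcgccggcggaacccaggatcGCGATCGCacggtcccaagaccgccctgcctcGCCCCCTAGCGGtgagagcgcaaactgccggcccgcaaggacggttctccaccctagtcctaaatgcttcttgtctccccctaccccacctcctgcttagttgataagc
VSTM2B intron, chr19:29528412-29528612: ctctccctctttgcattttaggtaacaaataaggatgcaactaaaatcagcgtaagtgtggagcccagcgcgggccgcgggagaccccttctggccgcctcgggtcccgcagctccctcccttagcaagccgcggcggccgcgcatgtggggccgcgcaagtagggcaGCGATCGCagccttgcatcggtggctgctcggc

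The 3724 sites held a median of 12 CpG (quartiles 9 and 17, range 8 to 40), and their windows were 62.9% G and C on average. The CTCF core motif lay within 50 bp of the centre in 1969 of them (52.9%), a larger share than among distal sites with 1 to 7 CpG (39.8%), distal sites without CpG (32.4%) or CpG-rich promoter sites (39.5%). In windows of the same length on the flanks of the sites the share was 2.51%. Of the sites with the motif, 1265 (64.2%) carried a CpG that began at base 12 of the core, its last letter, against 31.0% of distal sites with 1 to 7 CpG. At the other CpG position, bases 2 and 3, the counts were 458 sites (23.3%) and a share of 4.62%, and 330 sites had both. Because the CpG count chose the sites, these higher shares of CpG within the core are partly set by the choice. The core CCGCCAGGGGGC, which holds the CpG at bases 2 and 3, was found at 82 sites (4.16% of those with the motif) and at 0.373% of the other distal sites with the motif. The most frequent cores, CCACCAGAGGGC at 131 sites and CCACCAGGGGGC at 130, were common in both. A stricter form of the core, which limits more of its letters, was found at 23.6% of the distal CpG-rich sites. Its shares were 21.8% of distal sites with 1 to 7 CpG, 18.5% of those without CpG and 7.18% of CpG-rich promoter sites. The gap to the other distal sites was thus narrower than with the core above.

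By position, 1719 sites (46.2%) were intergenic, 974 lay in introns of protein-coding genes, 155 in coding exons, 161 in noncoding exons of such genes, 424 in introns and 211 in exons of lncRNA genes, and 80 in other noncoding genes. The median distance to a protein-coding TSS was 21.7 kb (quartiles 7.31 and 63.1 kb), and 644 sites lay more than 100 kb away. Although distal to coding genes, 520 sites (14.0%) lay within 1 kb of a lncRNA start. By composition, 1462 sites (39.3%) met a CpG island criterion over 500 bp (G and C above 0.5, observed to expected CpG above 0.6), against 85.7% of CpG-rich promoter sites. The share of CTCF sites that were distal and CpG-rich differed between chromosomes: it was 23.4% on chromosome 19, 23.0% on chromosome 16 and 21.1% on chromosome 17, but 7.66% on chromosome 4. Within 1 Mb of a chromosome end lay 196 of them (5.26%), against 2.03% of all sites.

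Most distal CpG-rich sites were bound in every condition. Among the 20000 strongest peaks, 2273 (61.0%) were present in all 24 lists and 125 in only 2, and the plot of sites by number of lists shows no other common number. The share in all lists was 48.3% for distal sites with 1 to 7 CpG, 35.1% for those without CpG, 50.9% for CpG-rich promoter sites and 49.0% for all sites. Ranks were counted from the strongest peak of a list as 1, and a site without a summit within 100 bp was given rank 100000. The median over sites of the mean log2 rank was 12.99 (quartiles 11.69 and 14.02), nearer the top than for distal sites with 1 to 7 CpG (13.77), distal sites without CpG (14.01) or CpG-rich promoter sites (13.50). Sites with the core motif were in all lists in 70.3% of cases with a median log2 rank of 12.67, and sites without it in 50.6% with 13.35. By location, sites in coding exons (40.6% in all lists, median 13.79) and in other noncoding genes (42.5%, 13.64) were in all lists least often.

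**Figure D1:**
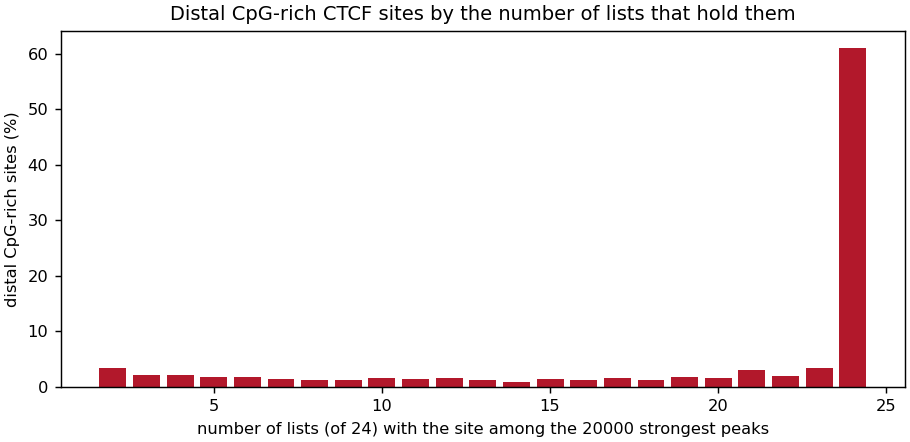
Share of the distal CpG-rich sites (vertical axis, percent of 3724) by the number of the 24 lists that hold the site among their 20000 strongest peaks (horizontal axis). The bar at 24 lists reaches 61.0%, and every other bar is at 3.38% or lower.

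The values just inside and outside the thresholds were close. Distal sites with exactly 8 CpG numbered 616, with 62.5% in all lists and a median log2 rank of 13.30, and the 863 distal sites with 7 CpG had 60.8% and 13.24. CpG-rich sites up to 250 bp beyond the 1 kb limit from a coding TSS numbered 102, with 56.9% in all lists and 13.24, and the 144 sites up to 250 bp inside it had 49.3% and 13.52. The ends of the range of CpG number differed more: the median log2 rank was 13.29 for the 1107 sites with 8 to 9 CpG and 12.50 for the 124 sites with 28 to 40 CpG. Over the 3724 sites, which share lists and base composition, the rank correlation (Spearman) of CpG number with mean log2 rank was -0.12.

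Of the 20 strongest sites, 9 lay within 50 kb of a chromosome end and 8 shared an identical core. The 6 strongest, near POLR3K, PGBD2, OR4F5, PRMT2, OR4F4 and IQSEC3, ranked between 2 and 54.5 in every list, and 5 of them lay within 50 kb of an end. The site near POLR3K, a subunit of RNA polymerase III, ranked 12.5, 7.5 and 7 in WT −DSB, 12, 9, 12.5 and 23 in WT +DSB, 12.5, 7, 7.5 and 10 in R132H −DSB, and 6, 10.5, 6.5 and 6.5 in R132H +DSB. In the TET1 lists the same site ranked 5 and 14.5 (CD −DSB), 3.5 and 8 (CD +DSB), 24, 13.5 and 4.5 (dCD −DSB) and 11.5 and 6.5 (dCD +DSB), so that all conditions overlapped. The core with its flanks, ggcgCCAGCAGGGGGCgctg, was identical at 8 of the distal CpG-rich sites, all of them in all 24 lists and among the 20 strongest, and 6 of them lay within 50 kb of a chromosome end. Where the sequence around the core is shared too, reads can be placed at any of these sites, so the value of each single site is uncertain; how many reads this touches was not tested.

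By condition, the distal CpG-rich sites were present most often in the WT +DSB lists. The number among the 20000 strongest peaks was 2893, 3012 and 2998 in WT −DSB, 3181, 3174, 3286 and 3315 in WT +DSB, 3152, 3081, 3104 and 3115 in R132H −DSB, and 2976, 2975, 3067 and 3047 in R132H +DSB. In the TET1 lists it was 3034 and 3051 (CD −DSB), 2854 and 2849 (CD +DSB), 2996, 2987 and 2869 (dCD −DSB), and 2914 and 2929 (dCD +DSB). Every WT +DSB list lay above every list of the other conditions, and R132H −DSB came next, above R132H +DSB with no overlap. As means over samples, 2949 ± 79.2 (SD, n = 2) were present in WT −DSB, 3218.5 ± 71.1 (n = 3) in WT +DSB, 3114 ± 35.7 (n = 3) in R132H −DSB and 3003 ± 47.1 (n = 3) in R132H +DSB. Present in any list of a single condition and nowhere else were 76 sites for WT +DSB and at most 6 for each other condition. The same count over all sites was not made, and the conditions differed in their number of lists. These counts are therefore not read as a trait of the distal CpG-rich sites.

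The median log2 rank was 13.12 ± 0.09 (SD, n = 2) in WT −DSB, 12.71 ± 0.19 (n = 3) in WT +DSB, 12.94 ± 0.07 (n = 3) in R132H −DSB, 13.10 ± 0.08 (n = 3) in R132H +DSB, 13.12 and 13.17 in TET1 CD without and with 4-OHT (1 sample each), and 13.16 ± 0.03 and 13.11 ± 0.01 in TET1 dCD (n = 2 each). WT +DSB and R132H −DSB, the conditions with the deepest lists, were nearest the top, and the remaining 6 conditions lay between 13.10 and 13.17. The longest fragments, 194 bp, were those of the TET1 CD +DSB lists, at 13.17. The CpG-rich promoter sites spread more widely over the same conditions, from 12.95 in WT +DSB to 13.89 in TET1 dCD +DSB, and the plot of presence and rank shows both classes beside the CpG-poor sites. The part of depth and fragment length in these levels was not tested, and it cannot be told apart from the treatment within a genotype.

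**Figure D2:**
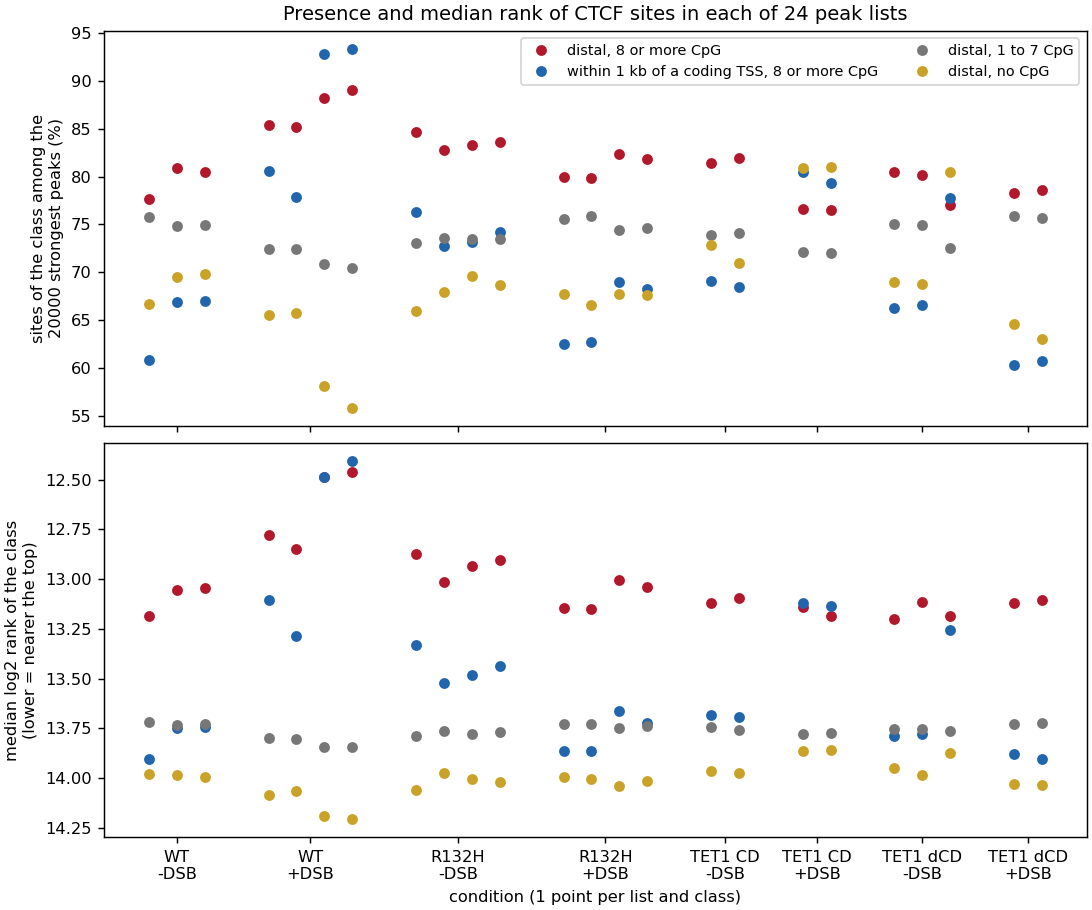
Share of each class of site among the 20000 strongest peaks of a list (upper panel, percent) and median log2 rank of the class (lower panel, axis inverted so that stronger is up), 1 point per list and class, with the 24 lists grouped by condition. The distal CpG-rich sites (red) reach 89.0% and a median of 12.46 in WT +DSB replicate 4 and fall to 76.5% in TET1 CD +DSB replicate 2.

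Sites in every list of one condition and in no list of the other were few. For R132H −DSB against WT −DSB there were 137 such distal CpG-rich sites (3.68% of the 3724), where the share over all 26792 sites was 3.70%, and 63 the other way (1.69%, over all sites 2.54%). By run names these would change places. For R132H +DSB against WT +DSB there were 58 (1.56%, over all sites 4.00%) and 209 (5.61%, over all 5.14%). For WT +DSB against WT −DSB there were 255 (6.85%, over all 5.92%) and 64 (1.72%, over all 4.58%). For R132H +DSB against R132H −DSB there were 57 (1.53%, over all 2.11%) and 108 (2.90%, over all 2.99%). For TET1 CD against TET1 dCD there were 26 (0.70%, over all 0.687%) and 5 (0.13%, over all 0.306%) without 4-OHT, and 185 (4.97%, over all 8.76%) and 233 (6.26%, over all 8.32%) with it, where each condition had 2 lists. Such sites were rarely without a peak: of the 255 present in WT +DSB and absent in WT −DSB, 233 had a peak over their centre in all 3 WT −DSB lists, placed below the strongest 20000 or with its summit elsewhere.

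Differences in log2 rank were fitted for all 26792 sites together (limma, 17 samples, Benjamini-Hochberg over all sites) and are given as nearer the top, or further down, in the condition named first. The average of R132H minus WT over both treatments takes a deep and a shallow condition of each genotype under the labels. This balances the lists only in part. The deep WT +DSB lists had 70.9 to 80.0 M reads and 143 to 191 bp, and those of R132H −DSB 44.3 to 63.2 M and 144 to 150 bp. In this average the median difference of the distal CpG-rich sites was -0.08 (all sites 0.01). At an adjusted p under 0.05, 2 of them were called, against 0.0336% of all sites. One, in an intron of a lncRNA gene 9.94 kb from CA4, a carbonic anhydrase gene, was nearer the top in R132H by 2.41 ± 0.15 (SE, adjusted p = 3.39e-05). Its summit was missing from all 4 WT +DSB lists, although a peak at rank 818 to 1700.5 covered its centre there. By the rank of that covering peak the difference was -0.86, the opposite direction. The other, in a noncoding exon of RTN2, which encodes a reticulon of the endoplasmic reticulum, was further down in R132H by -2.29 ± 0.27 (adjusted p = 0.00545), and its covering peak differed by -0.02. Neither was called when the covering peak gave the rank. With the run names in place of the labels the count became 1882, with 55.2% of all sites called. That average compares only deep WT lists with only shallow R132H lists, so genotype and depth cannot be told apart in it.

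Within each treatment the genotypes differed at many sites, and under the labels mostly in opposite directions. Without 4-OHT, 1009 distal CpG-rich sites were called (25.0% of all sites were), 721 nearer the top in R132H (14.3% of all) and 288 further down (10.7%), with a median difference of 0.11 (all sites -0.04). With 4-OHT, where the labels and the run names of all lists match, 1620 were called (46.7% of all), 429 nearer the top in R132H (24.6%) and 1191 further down (22.1%), with a median of -0.29 (all sites 0.05). Both treatments compare deep lists with shallow ones, with R132H on the deep side without 4-OHT and on the shallow side with it. By run names the direction without 4-OHT turned and was mostly that with 4-OHT: 970 sites were called (24.3% of all), 276 nearer the top in R132H (10.5%) and 694 further down (13.8%). Without WT −DSB replicate 2 the first count fell to 237 and its median to 0.

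With and without 4-OHT, the same opposition appeared between the genotypes. In WT, 1507 sites were called (41.8% of all), 1148 nearer the top with 4-OHT (20.2%) and 359 further down (21.6%), with a median of 0.32 (all sites -0.05). In R132H, 1077 were called (28.2% of all), 352 nearer the top (12.9%) and 725 further down (15.3%), with a median of -0.09 (all sites 0.04). The difference between these changes, R132H minus WT, was itself called at 1900 sites (55.9% of all), 605 above 0 (29.2%) and 1295 below (26.8%), with a median of -0.39 (all sites 0.12). Grouped by run names, the limma calls were 4 for 4-OHT in WT (0.0523% of all sites), 0 in R132H (0.00746%) and 0 for the difference between them (0.0187%). All 3 label-based counts compare deep with shallow lists, and the part of depth was not tested. Without WT −DSB replicate 2 the count in WT was 653.

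TET1 CD and TET1 dCD, averaged over both treatments, differed at 7 distal CpG-rich sites (0.105% of all sites were called), with a median of 0.06 against 0.05 for all sites. Named by size, sites near FAM72B and KRT8 were nearer the top with TET1 CD, and sites near NPVF, FAM72B again and BTNL2 were further down. The pair near FAM72B lay 420 bp apart in one peak: the summit was at the one in both TET1 CD +DSB lists (ranks 154.5 and 91) and at the other in the remaining 22 lists (ranks 76 to 282.5). By the covering peak, that pair differed by 0.36, in one direction. The site near NPVF had ranks of 397 to 3494 where its summit was present and was under a peak at rank 17.5 and 19.5 in TET1 CD +DSB with the summit elsewhere, and by the covering peak it turned from -4.71 to 4.39. By the covering peak, 1 of the 7 was called, in the opposite direction, and none in the same. Without TET1 dCD −DSB replicate 3 the count was 68.

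The number of CpG went with the size of these differences. For 4-OHT in WT the median difference was 0.08 for the 1107 sites with 8 to 9 CpG, 0.16 for the 701 with 10 to 11, 0.33 for the 753 with 12 to 15, 0.48 for the 483 with 16 to 19, 0.72 for the 556 with 20 to 27 and 0.79 for the 124 with 28 to 40. In R132H the medians ran the other way, from 0.00 to -0.37 over the same bins, and those of R132H minus WT averaged over treatments from -0.02 to -0.21. For TET1 CD minus TET1 dCD they ran from 0.00 to 0.37. All 4 series moved in 1 direction from the lowest bin to the highest. Over the 3724 sites the Spearman correlation of CpG number with the difference was 0.19 for 4-OHT in WT, -0.12 in R132H, -0.20 for the genotype average and 0.19 for TET1. These comparisons share lists. The TET1 lists with 4-OHT also differed in shortest peak and depth. These were 194 bp and 34.6 to 41.7 M reads in TET1 CD, and 118 to 119 bp and 26.6 to 27.9 M in TET1 dCD. The genotype average balances depth and fragment length only in part. The share of either in these series was not tested, and the TET1 medians are given by the labels only. By run names, the medians for R132H minus WT were -0.03 in the lowest bin and -0.61 in the highest. There all WT lists were deep and all R132H lists shallow. The CpG-rich promoter sites, not chosen for being distal, had a median of 0.76 for 4-OHT in WT and 0.38 for TET1.

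**Figure D3:**
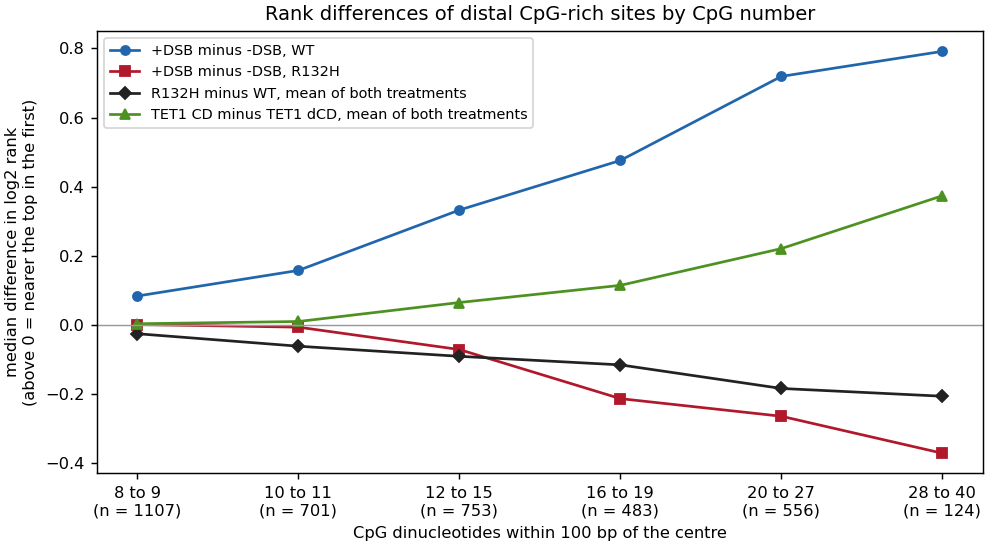
Median difference in log2 rank of the distal CpG-rich sites (vertical axis, above 0 is nearer the top in the condition named first) by CpG number within 100 bp of the centre (horizontal axis, with the number of sites in each bin), for 4 comparisons. The line for 4-OHT in WT rises from 0.08 to 0.79, that for TET1 CD from 0.00 to 0.37, and those for 4-OHT in R132H and for R132H minus WT fall to -0.37 and -0.21.

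The HOX clusters, which hold the genes that pattern the body axis and are divided by CTCF sites, held many of these sites. Of 24 CTCF sites inside or within 20 kb of a HOX gene, 15 were distal and CpG-rich, where 13.9% of all sites were. They lay by 10 of 39 HOX genes, and 13 of them were in all 24 lists. The strongest, in an intron of HOXA3 with 21 CpG, ranked 900, 480.5 and 790.5 in WT −DSB, 221, 223, 24 and 23 in WT +DSB, 430, 289, 390.5 and 470.5 in R132H −DSB, and 919.5, 770, 612.5 and 307.5 in R132H +DSB. It ranked 356 and 589.5 in TET1 CD −DSB, 115 and 109.5 in TET1 CD +DSB, 486, 401 and 75 in TET1 dCD −DSB, and 329.5 and 493.5 in TET1 dCD +DSB. The WT +DSB lists were above all WT −DSB lists with no overlap, and the 6 lists whose shortest peak was 172 bp or longer ranked highest of the 24. The difference with 4-OHT was 2.83 ± 0.93 in WT (adjusted p = 0.029) and -0.84 ± 0.83 in R132H (adjusted p = 0.459), and the difference between them was -3.67 ± 1.25 (adjusted p = 0.025). By run names the change in WT was 1.84 (adjusted p = 0.398), and the site was further down in R132H by -1.83 on average (adjusted p = 0.0201). For the 15 sites, 8 were called for 4-OHT in WT (7 nearer the top) and 3 in R132H (none nearer the top), 5 for R132H minus WT without 4-OHT (4 nearer the top) and 8 with it (1 nearer the top). Over all sites 41.8%, 28.2%, 25.0% and 46.7% were called in these comparisons, so that with 15 sites the counts lay near the shares over all sites. None was called for the genotype average or TET1. By run names none of the 15 was called for 4-OHT in either genotype (0.0523% of all sites in WT and 0.00746% in R132H). For the genotype average 9 were called by run names (2 nearer the top), where 55.2% of all sites were. The next strongest site, 1.29 kb from HOXA9, ranked from 177 to 1134.5 and was not called in any comparison.

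Imprinted genes held a smaller share of such sites than the HOX clusters, though a larger one than the 13.9% over all sites. Of 21 CTCF sites at the 16 genes of the list, 5 were distal and CpG-rich, by CDKN1C, H19 and IGF2, and 1 of the 5 was in all lists. That one lay 2.79 kb from CDKN1C, a growth-restraining cyclin-dependent kinase inhibitor expressed from the maternal copy, in an exon of the lncRNA gene SLC22A18AS. It ranked 1736.5, 2318.5 and 1196.5 in WT −DSB, 5840.5, 5932, 5045.5 and 4541 in WT +DSB, 7511, 7882, 3165.5 and 4190 in R132H −DSB and 2370, 1571.5, 1052 and 845 in R132H +DSB. In the TET1 lists it ranked 5239 and 4399.5 (CD −DSB), 2430 and 1542 (CD +DSB), 2057, 4736 and 1400 (dCD −DSB), and 1784.5 and 2275 (dCD +DSB). The WT and R132H conditions formed a pair of groups that did not overlap, with WT −DSB and R132H +DSB nearer the top than WT +DSB and R132H −DSB. The difference was -1.82 ± 0.46 for R132H minus WT without 4-OHT (adjusted p = 0.0141) and 1.85 ± 0.41 with it (adjusted p = 0.00369), and 0.02 ± 0.31 on average (adjusted p = 0.99). By run names it was nearer the top in R132H both without (1.82, adjusted p = 0.0104) and with 4-OHT (1.85, adjusted p = 0.0026), and by 1.84 on average (adjusted p = 0.000267). A site with 18 CpG, in an intron of H19 by the annotation used, ranked between 14270 and 25455 and was not called in any comparison. H19 is a lncRNA gene with a control region that binds CTCF on the unmethylated copy. Whether the site lies in that region was not tested.

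At PDGFRA, a growth factor receptor gene, 3 of 5 sites at the list of 4 neighbouring genes were distal and CpG-rich. The pair inside the gene, at chr4:54233384-54233584 with 24 CpG and chr4:54234344-54234544 with 13 CpG, had centres 960 bp apart, and each list placed a summit at one or the other and never at both. The first held the summit in 11 lists, among them all 4 of WT +DSB and none of R132H +DSB, and the second in 13 lists, among them all 4 of R132H +DSB and none of WT +DSB. One peak covered both in every list, with ranks of 1791.5, 1662, 765 and 751.5 in WT +DSB and 1849.5, 952.5, 1425 and 1127 in R132H +DSB, which overlapped. The called differences of -6.25 ± 1.32 (adjusted p = 0.00298) and 6.26 ± 1.28 (adjusted p = 0.00249) for R132H minus WT with 4-OHT came with a summit that moved within a single peak, and their size depends on the rank of 100000 given to a missing summit. The third site, 1.04 kb from PDGFRA at chr4:54228141-54228341, ranked from 1365.5 to 5442.5 in all lists and was not called in any comparison.

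Among the genes of DNA methylation itself, 2 of 14 sites were distal and CpG-rich, and both were in all lists. The site 12.1 kb from TET3, which encodes a methylcytosine dioxygenase, held 22 CpG. It ranked 1308, 1853.5 and 1058 in WT −DSB, 1865.5, 2738, 930.5 and 881.5 in WT +DSB, 1796, 1432.5, 1779 and 1752 in R132H −DSB, and 2111.5, 1766, 4154.5 and 1915 in R132H +DSB, with overlap between all of them. For R132H minus WT it differed by -0.34 ± 0.28 (adjusted p = 0.789). The site 19.5 kb from DNMT3A, a de novo DNA methyltransferase gene, ranked from 448 to 2870.5 and was not called either. None of the 20 sites at CTCF and cohesin genes and none of the 15 at homologous recombination genes was distal and CpG-rich. Of 42 sites at protocadherin genes 2 were, both by PCDHB1. Over all sites the share was 13.9%.

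**Figure D4:**
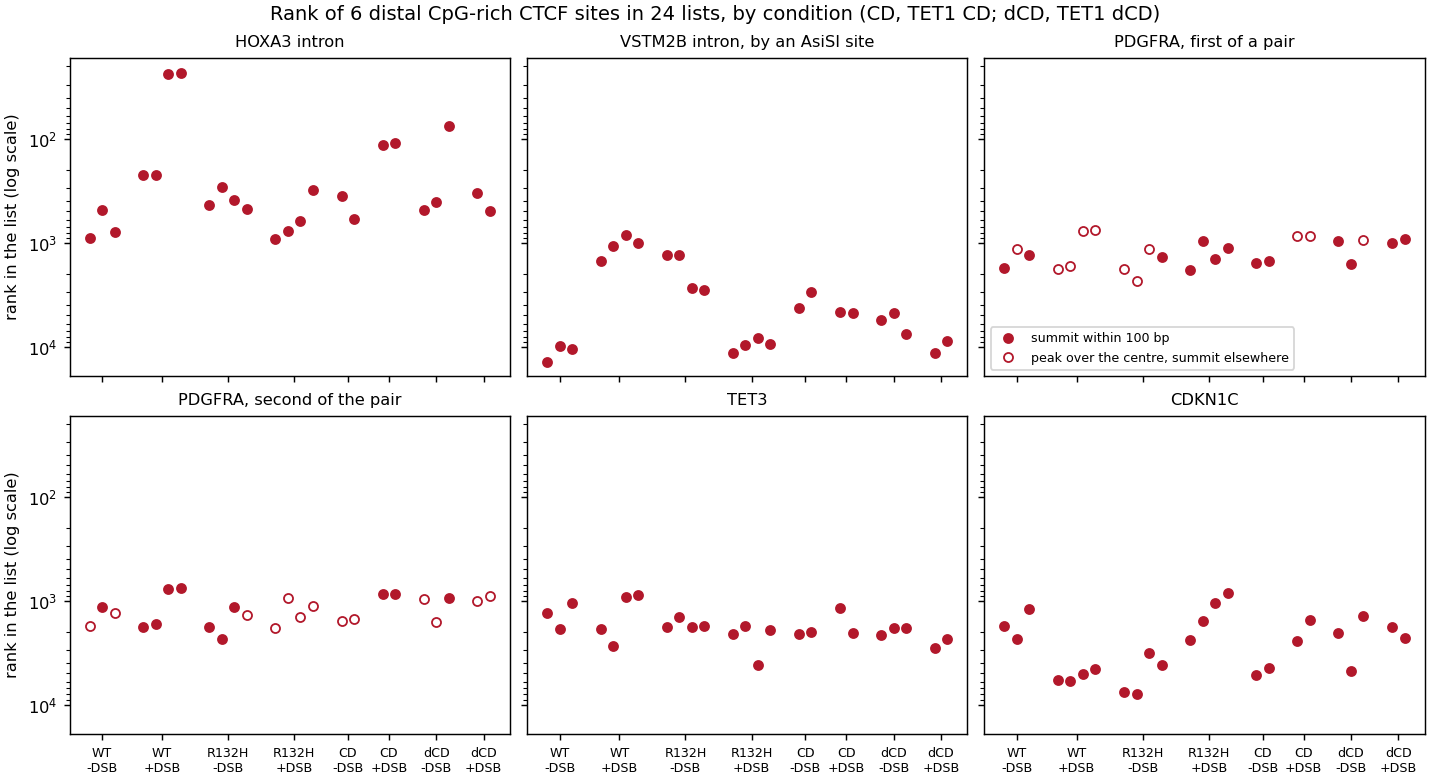
Rank (vertical axis, log scale, stronger up) of 6 distal CpG-rich sites in the 24 lists, grouped by condition. Filled points have a summit within 100 bp of the centre, and open points a peak over the centre with its summit elsewhere: the PDGFRA pair exchanges filled and open points between conditions while the ranks overlap, whereas the VSTM2B site spans 847.5 to 13926.

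AsiSI sites, where 4-OHT induces cuts, lay within 10 kb of 88 distal CpG-rich sites and within 1 kb of 14. The recognition sequence holds CpG, and the enzyme does not cut it when methylated. Of the 88, 41 were called for 4-OHT in WT, 35 of them nearer the top, with a median difference of 0.43 against 0.31 for the 3636 others, and 29 in R132H, 6 nearer the top, with -0.30 against -0.09. The shares called, 46.6% and 33.0%, lay near those of the others (40.3% and 28.8%) and of all sites (41.8% and 28.2%). By run names none of the 88 was called for 4-OHT in either genotype, where 0.0523% of all sites were called in WT and 0.00746% in R132H. The closest, 36 bp from the AsiSI sequence and 2.29 kb from SLC32A1, a gene for a transporter of inhibitory transmitters, ranked from 665 to 3531.5 over the lists. It ranked 2574.5, 2083 and 1742.5 in WT −DSB and 1654, 1482, 1182 and 1361.5 in WT +DSB, and its difference was 0.60 ± 0.40 (adjusted p = 0.242). The site 72 bp from an AsiSI sequence in an intron of VSTM2B ranked 13926, 9785 and 10540 in WT −DSB, 1504.5, 1063.5, 847.5 and 997 in WT +DSB, 1326.5, 1323, 2713.5 and 2819.5 in R132H −DSB, and 11398.5, 9592, 8213.5 and 9350 in R132H +DSB. It was thus high with 4-OHT in WT and high without it in R132H, by 3.39 ± 0.35 (adjusted p = 0.000153) and -2.54 ± 0.32 (adjusted p = 0.000495), and low in the shallow lists of both. By run names it was high in WT and low in R132H with and without 4-OHT, with a difference of -2.96 between the genotypes on average (adjusted p = 6.93e-06) and 0.57 for 4-OHT in WT (adjusted p = 0.452). In TET1 lists it ranked between 2967 and 11401. The site 94 bp from an AsiSI sequence near SRRM3, a splicing regulator gene, ranked from 991 to 3103.5 with no call.

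In 5 of the 7 comparisons most calls held when the peak over the centre gave the rank in place of a summit, and in the genotype average and TET1 none did. In the same direction, 967 of the 1009 calls for R132H minus WT without 4-OHT, 1540 of 1620 with it, 1428 of 1507 for 4-OHT in WT, 1031 of 1077 in R132H and 1823 of 1900 for the difference between them were then called. At the sites named for the size of their change, 17 of 43 calls kept direction and call this way. Many of these sites had H3-7 as their nearest protein-coding gene and lay in the pericentromeric part of chromosome 1. For others the nearest was TPTE, KRT17, BUD13, DMRT3, NEURL3, GLRX3, OR4F16, FAM20C, POTEH or RBAK-RBAKDN. The distances ran from 1.47 kb (NEURL3) to 2118.8 kb (TPTE). Whether reads at these sites could also be placed elsewhere in the genome was not tested. The site at chr1:143207026-143207226, 687 kb from H3-7, had a summit in all lists of WT −DSB (ranks 67, 352.5 and 205) and R132H +DSB (84, 80, 216 and 181) and in none of WT +DSB or R132H −DSB, where a peak at rank 97 to 8056.5 covered it. Of the 54 sites named here, all had a peak over their centre in every list and 28 lacked a summit in at least 1 list. Over the 3724 sites, 3152 had a summit within 100 bp in every list and 3630 (97.5%) had a peak over the centre in every list. Of 4279 cases of a site and a list without a summit, 3969 (92.8%) were under a peak.

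Sites with a summit in every list also differed, and 6 of them were chosen for this after their values were seen. The site in an intron of TEKT4, at chr2:94874284-94874484, ranked 11362, 10724 and 11373.5 in WT −DSB, 221, 196.5, 847.5 and 751.5 in WT +DSB, 204, 209, 619.5 and 862.5 in R132H −DSB and 13179.5, 11751.5, 9264.5 and 11692 in R132H +DSB. The site 13.9 kb from TCAF1, a gene for a regulator of TRP channels, went the other way, with 171.5, 117.5 and 179 in WT −DSB, 924, 1063.5, 2707.5 and 1517 in WT +DSB, 1326.5, 993, 647.5 and 902.5 in R132H −DSB and 144.5, 92, 234.5 and 193.5 in R132H +DSB. At both, WT −DSB lay with R132H +DSB and WT +DSB with R132H −DSB, the split that depth and fragment length also show. The difference between the changes with 4-OHT was -10.32 ± 0.97 for the former (adjusted p = 1.26e-05) and 5.82 ± 0.64 for the latter (adjusted p = 2.92e-05), and by run names -0.01 and 0.48.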

How the data were processed

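According to the paper and the submitters' processing notes, reads were trimmed with cutadapt 1.18 and mapped to hg38 with Bowtie2 2.3.4.1, and MACS2 called peaks per sample against input; the versions named differ between sources. For each peak the deposited lists give the authors' fold enrichment (a ratio), −log10 p and −log10 q. Each list has a single background level, so copy number in this aneuploid line enters the ranks. Sites were built as described, without the 7 to 60 top peaks per list off the main chromosomes. Log2 ranks (ties averaged, missing summits at 100000) were fitted with limma 3.58.1 in R 4.3.3, with 8 conditions, 17 samples, 7 contrasts and Benjamini-Hochberg adjustment over 26792 sites, and the fit was tested on simulated data. Sequences came from GRCh38 (pysam 0.24.0).

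Sites and gene lists were chosen with earlier results of these data known. Sites named are the 6 strongest, the 3 with the largest called difference in each direction per contrast, up to 3 within 20 kb of each gene list, the 4 nearest an AsiSI sequence, the 3 with the most CpG, and 6 chosen after their values were seen. Same-numbered lists of different conditions did not deviate together on average (mean r 0.03 over 65 pairs, against -0.01 over 184 other pairs). Single pairs ranged from -0.15 to 0.29 and from -0.32 to 0.21. This mean over all conditions cannot exclude pairing between some of them. WT −DSB replicate 2 (22.7 M reads, 124 bp) lay near R132H +DSB replicates 1 and 2 (24.4 and 23.7 M, 122 and 121 bp). Likewise, WT −DSB replicates 3 and 4 (35.1 and 33.4 M) lay near R132H +DSB replicates 3 and 4 (33.2 and 34.6 M). The main fit did not pair samples by number. The list of WT −DSB replicate 1 and the 4C-seq samples were not analysed here. Alternatives covered peak number, summit distance, rank limit, CpG minimum, each list as a sample, a replicate block, run names and leaving out samples.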

Additional observations from a re-analysis of the deposited data

Results flagged for a closer look

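The change with 4-OHT differed between R132H and WT, by the test of that difference, at 1900 distal CpG-rich sites (51.0%, against 55.9% of all sites). With deep lists in WT +DSB and R132H −DSB and shallow ones in the other conditions, this difference coincides with the split in depth and fragment length. Values below are the difference in log2 rank, R132H minus WT.

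Among the sites with the largest values, those 687 and 643 kb from H3-7 on chromosome 1 had 19.37 and 15.59. That 53.7 kb from OR4F16 had 11.72. None of these windows held the core motif within 50 bp of the centre. The windows by H3-7 are made of short repeated runs of bases, and how reads were placed there was not tested. Those 24.0 kb from KRT17, 2118.8 kb from TPTE and 471.6 kb from BUD13 had -16.18, -15.99 and -14.63. All 6 lacked a summit in several lists and had a peak over the centre in every list. Whether the sequences at the OR4F16 and TPTE sites recur elsewhere in the genome, and how reads were placed there, was not tested.

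Among sites with a summit in every list, those near MROH5, TCAF1 and BET1L had 5.90, 5.82 and 5.63, and those near B4GALNT3, ZNF519 and TEKT4 had -11.85, -10.40 and -10.32.

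Of the 6 strongest sites, those near OR4F5, OR4F4 and IQSEC3 had 2.72, 3.13 and 2.81, and that near PRMT2 had -2.96. The site by CDKN1C had 3.67 and one by PCDHB1 had 3.46. The HOXA3 intron held 2 sites with -3.67 and -3.03. The pair inside PDGFRA had 9.72 and -9.46, with the summit moving from one to the other within 1 peak. By AsiSI sequences, the site in the VSTM2B intron had -5.93 and that near H2AC12 had -0.91.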

How the results depend on the processing

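Of 219 alternative counts of called sites over the 7 comparisons, 186 stayed within 1.5 times of the reported count. With groups from the run names the counts were 1882 for R132H minus WT on average, 4 for 4-OHT in WT, 0 in R132H, 0 for the difference between them and 1 for TET1. Among sites in all 24 lists alone, an alternative chosen after seeing the data, they were 0 for the genotype average, 536 and 897 without and with 4-OHT, 771 for 4-OHT in WT, 593 in R132H, 1060 for the difference and 0 for TET1, from fewer sites. By the covering peak, also chosen after seeing the data, they were 0 for the genotype average and 1 for TET1, and 1086, 1738, 1589, 1153 and 1996 for the other comparisons in the same order. The genotype average gave 1 with WT +DSB replicates 1, 3 and 4 as 1 sample (also chosen after seeing the data, no other count moving by over 1.5 times), 1 with 10000 peaks, 1 with sites in 4 or more lists and 1 with the replicate block. TET1 gave 364 with every list as its own sample, 592 with the replicate block on those lists, 19 by quantile-normalized fold, 16 with a −log10 q of at least 10 and 4 with ranks limited to 50000. The replicate block moved no other count by over 1.5 times. Leaving out 1 sample at a time gave 1 to 10 for the genotype average, 237 to 1109 without and 1273 to 1727 with 4-OHT, 653 to 1589 for 4-OHT in WT, 682 to 1177 in R132H, 1547 to 1974 for the difference and 5 to 68 for TET1. The alternative counts, here and above, are given without the share over all sites where none is named. They therefore do not show whether the distal CpG-rich sites or all sites alike changed. The cause of each change was not tested.

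Of 43 calls at named sites, 7 kept direction and call by run names and 17 by the covering peak, and 11 and 12 reversed. By run names, R132H minus WT without 4-OHT became -9.99 at DMRT3, -9.17 at TPTE, -8.28 and 9.54 at the 2 H3-7 sites, 4.16 at NEURL3 and 3.88 at GLRX3. Also by run names, 4-OHT in WT became -2.36 at TPTE, 4-OHT in R132H became -0.15 at POTEH and -0.30 at RBAK-RBAKDN, and the difference became 2.36 at TPTE and 1.15 at B4GALNT3. By the covering peak, the genotype average became -0.86 at CA4, R132H minus WT became -1.26 at an H3-7 site and 0.66 at NEURL3 without 4-OHT and 2.06 at another H3-7 site with it, 4-OHT in WT became -2.31 at TPTE, 4-OHT in R132H became -1.52 at RBAK-RBAKDN, 1.09 at TPTE and 1.55 at H3-7, the difference became 3.39 at TPTE, and TET1 became 4.39 at NPVF, 0.36 at FAM72B and 0.23 at BTNL2. With summits within 300 bp, RBAK-RBAKDN gave -1.52. Depth limits how far absence can be read: a site missing from the strongest 20000 peaks is not shown to be unbound.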

Other observations

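Distal CpG-rich sites lay within 1000 bp of another CTCF site in 172 cases (4.62%, against 3.31% of all sites). Sites with a CpG at the last base of the core had a median log2 rank of 12.50 (1265 sites) and those with the motif but no CpG there had 12.96 (704 sites), with 70.9% and 69.3% in all lists. CpG-island-like sites and the others were in all lists in 60.0% and 61.7% of cases. Sites in exons of lncRNA genes were in all lists in 65.4% of cases and intergenic sites in 64.0%.

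The site with the most CpG, 40 in its window, lay on chromosome 21 at chr21:8987239-8987439. It lacked a summit in 6 lists, with ranks of 1662 to 26420 in the others, and how reads were placed there was not tested. The next, at 39 CpG and 74.4 kb from CD83, ranked from 1361.5 to 15873.5, and that with 38 CpG in an intron of EBF3, a neuronal transcription factor gene, from 2300 to 13809.5. At both the WT +DSB replicates 3 and 4 were the 2 strongest of the 24 lists (2300 and 1361.5 by CD83, 2300 and 2743.5 in EBF3).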
